A study of Mus musculus with 2 samples.

Results

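The motile cilium and axoneme genes are 84 of the 32285 genes counted in the mouse brain suspensions. They were chosen by symbol: all names that begin with Cfap, Dnah, Dnai or Dnaic, Rsph, Tekt or Ift followed by a digit, plus Foxj1, Tmem212, Ccdc153, Ccdc39 and Ccdc40. The rule took 33 Cfap genes, 15 Dnah genes, 2 Dnaic genes, 8 Rsph genes, 5 Tekt genes, 14 Ift genes, the 5 single genes and 2 antisense RNAs, Dnah2os and Ift88os. A transcript of 83 of them was counted in the cells kept, and Ift88os had none. In the ependymal-like cells 77 of the 84 had at least 20 unique molecular identifiers (UMIs, each standing for 1 captured transcript) over both libraries.

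Cells of whole brains from 6-month-old APP-KI mice, which carry a knock-in that models Alzheimer's disease, were freed with the Adult Brain Dissociation Kit and sequenced with 10x 3' v3.1 chemistry. There were 2 libraries, 1 from Fit2-WT mice and 1 from Fit2-Mut mice, so the APP-KI allele is shared and Fit2, which the series describes as disrupted in macrophages, is what the labels vary. The labels do not give how the disruption was made, the number of mice behind a library, or their sex. With 1 library per genotype there is no replicate check: every interval below is a 95% interval for counting error only, and a genotype difference cannot be told apart from a difference between animals or preparations. The Fit2-WT library gave 5209 cells and the Fit2-Mut library 5824, and 10 cell barcodes were found in both. Fitm2, the gene behind the name Fit2, had 17 UMIs in the Fit2-WT microglia-like cells and 1 in the Fit2-Mut microglia-like cells, and 45 and 47 in the ependymal-like cells.

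A motile cilium beats because dynein motors, fixed in rows on a ring of microtubule doublets, slide neighbouring doublets past each other. Outer dynein arms set the beat frequency and inner arms shape the stroke, while radial spokes relay signals from a central pair of microtubules, and tektins run as filaments inside the doublets. Intraflagellar transport carries building material along the shaft of motile and sensory cilia alike. In the brain, ependymal cells line the ventricles with tufts of beating cilia that move cerebrospinal fluid, and epithelial cells of the choroid plexus, which secrete that fluid, also carry tufts of cilia. Foxj1 is the forkhead transcription factor that switches on the motile programme, and RFX factors, which bind the X-box, act beside it.

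Sequences before the gene starts are shown because these genes are read out together in ependymal cells and the X-box is the element the RFX factors are named for. RefSeq promoters (GRCm38.p6) were listed for 67 of the 84 genes, and the 250 bases before each start were searched on both strands. The X-box arm GTTGCC was found for 20 of the 67 genes, which is 29.9%, against 3195 of all 27025 genes listed, which is 11.8%. Among the 20 are Dnah7a, Dnah7b and Dnah7c, near-identical copies of each other that were counted separately. The whole X-box, read as GTTNCC, 2 free bases and GGNAAC, and so able to overlap the arm, was found for 1 of the 67 (1.49%) and for 0.444% of all genes. The forkhead motif TGTTTAC was found for 4 of the 67 (5.97%) and for 3.54% of all genes. A match is a run of letters, not a measured binding site. The windows below run 60 bases in the direction of the gene, with matches in capitals. The first 2 belong to genes counted only 13 and 3 times in the choroid plexus-like cells, and the last 3 to genes that those cells also transcribed.
Ccdc153 (chr9:44240498-44240557, + strand): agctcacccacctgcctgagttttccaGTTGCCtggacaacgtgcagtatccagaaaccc
Dnah10 (chr5:124725025-124725084, + strand): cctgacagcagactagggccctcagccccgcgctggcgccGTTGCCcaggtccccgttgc
Cfap44 (chr16:44394739-44394798, + strand): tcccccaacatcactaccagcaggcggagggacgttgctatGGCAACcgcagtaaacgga
Tekt1 (chr11:72361883-72361942, - strand): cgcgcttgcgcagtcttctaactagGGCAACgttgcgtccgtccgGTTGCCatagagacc
Ift57 (chr16:49699207-49699266, + strand): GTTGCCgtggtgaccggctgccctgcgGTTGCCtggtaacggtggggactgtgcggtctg
Cfap298 (chr16:90935001-90935060, - strand): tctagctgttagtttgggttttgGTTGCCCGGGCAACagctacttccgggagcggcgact
The Cfap298 window holds the only whole X-box, as read here, found among the 67 genes. The Tekt1, Ift57 and Cfap298 windows hold the arm more than once. Only a gap of 2 free bases was searched, so GTTGCC and GGTAAC with 1 base between them in the Ift57 window were not counted as a whole X-box. In the Cfap44 window, GTTGCT and GGCAAC with 2 bases between them miss the searched pattern by 1 letter and were not counted either. The arm did not sort the genes by where they were transcribed: it was found for 4 of 11 genes whose choroid plexus level was under 1% of the ependymal level, 6 of 22 genes from 1% to 10%, and 10 of 29 genes at 10% or more. The 4 include both Dnah7a and Dnah7c.

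Cell types were named from clusters made without the cilium genes, and the names end in "like" because they rest on marker genes. The ependymal-like cells were 1 cluster of 108 Fit2-WT and 136 Fit2-Mut cells, with median depths of 10943 and 11074 UMIs per cell. They carried 7 of 8 ependymal markers that are no cilium genes (Rarres2, Mia, Hdc, Krt15, Cd24a, Tm4sf1 and Pltp), whose list summed to 8673 and 9266 counts per 1000000 UMIs (CPM). The number named ependymal-like was also 244 when the cilium genes were left in the clustering. Beside the genotype values that follow, markers of the choroid plexus summed to 7541 CPM in the Fit2-WT ependymal-like cells and 2987 CPM in the Fit2-Mut ones, and markers of oligodendrocytes to 331 and 72.3 CPM. More than 2% of the UMIs came from markers of choroid plexus, oligodendrocytes, astrocytes or microglia in 4 Fit2-WT and 1 Fit2-Mut ependymal-like cells.

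Transcripts of the 84 genes made up 25833 CPM of the Fit2-WT ependymal-like cells and 27248 CPM of the Fit2-Mut ones, the highest of the 7 types with at least 100 cells in each library. The choroid plexus-like cells followed at 3463 and 3385 CPM. The sum was 1148 and 1157 CPM in astrocyte-like cells, 791 and 842 CPM in oligodendrocyte-like cells, 704 and 701 CPM in endothelial-like cells, 460 and 424 CPM in microglia-like cells, and 395 and 405 CPM in T cell-like cells. The order of the types was the same in both libraries. Free RNA, estimated from barcodes with 10 to 100 UMIs, would account for 253 and 103 CPM of the sum in the ependymal-like cells and 196 and 113 CPM in the microglia-like cells, where it comes nearest to the sum. It was not estimated for the choroid plexus-like cells.

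**Figure D1:**
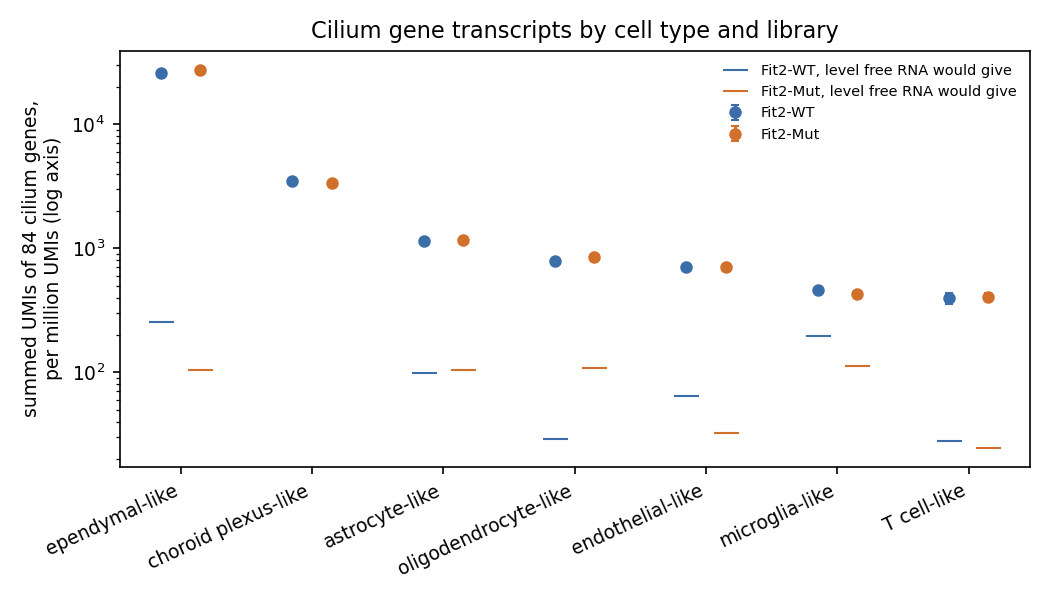
Summed level of the 84 cilium genes (y axis, CPM, log axis) in the 7 compared cell types (x axis), for each library. Points with 95% counting intervals are the measured sums and dashes the level that free RNA would give (not drawn for choroid plexus-like cells); the ependymal-like cells sit near 25833 and 27248 CPM and the choroid plexus-like cells near 3463 and 3385 CPM.

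The ependymal-like cells held 2.59% of all UMIs of the Fit2-WT library's cells and 2.76% for Fit2-Mut, but 27.1% (95% Clopper-Pearson interval 26.8 to 27.4) and 32.1% (31.8 to 32.3) of the cilium UMIs. The choroid plexus-like cells, with 38.7% and 31.6% of all UMIs, held 54.3% and 45.5% of them. The parts of the axoneme divided differently between the cell types. Of the Dnah UMIs, 65.0% and 69.4% lay in the ependymal-like cells, against 9.64% and 11.3% of the Ift UMIs. Radial spoke genes had 19.3% and 24.2% there, tektin genes 19.4% and 25.5%, and Cfap genes 25.1% and 30.5%. The share of a type in these UMIs moves with how many of its cells were captured, which the CPM levels do not.

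Of the single genes, Tmem212 and Ccdc153 were nearly all in the ependymal-like cells, and Foxj1 and Ccdc39 were not. Tmem212, a membrane protein gene of ciliated cells (chr3:27866066-27896368 in GRCm38, GENCODE vM21), stood at 3102 CPM in the Fit2-WT and 3148 CPM in the Fit2-Mut ependymal-like cells, where 99.4% and 99.2% of all its UMIs lay. A Tmem212 transcript was counted in 96.3% and 100% of these cells as sequenced, and in 86.1% and 91.2% after every cell was thinned to 1000 UMIs. Ccdc153, a coiled-coil protein gene (chr9:44240676-44247306) and the first of the windows shown, stood at 2326 and 2410 CPM, with 99.0% and 98.9% of its UMIs there. Neither gene differed between the libraries beyond counting error: the ratio of Fit2-Mut over Fit2-WT was 1.01 (0.97 to 1.06) for Tmem212 and 1.04 (0.98 to 1.09) for Ccdc153.

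Foxj1 (chr11:116330704-116335399), the regulator of the programme, was counted 482 times in the Fit2-WT ependymal-like cells and 548 times in the Fit2-Mut ones, which is 430 and 377 CPM and a ratio of 0.88 (0.78 to 0.99). After thinning to 1000 UMIs per cell the log2 ratio of -0.19 became 0.47. In the choroid plexus-like cells it was at 35.8 and 42.0 CPM and a ratio of 1.17 (1.05 to 1.31). Oligodendrocyte-like cells held 96 and 162 Foxj1 UMIs in 81 and 126 cells, 13.1 and 15.8 CPM, where free RNA would give 0.35 and 1.51 CPM. Astrocyte-like cells had 4.17 and 4.21 CPM, with 1.20 and 1.47 CPM given by free RNA. Ccdc39 and Ccdc40, whose products together set the spacing of arms and spokes along the doublet, did not share a pattern outside the ependyma. Ccdc40 was at 144 and 141 CPM in the ependymal-like cells and had 5 UMIs in all choroid plexus-like cells, whereas Ccdc39 was at 427 and 448 CPM in the ependymal-like cells, with a mean of 42.7 CPM in the choroid plexus-like cells and 25.2 and 24.1 CPM in the astrocyte-like cells. Ttc14 overlaps Ccdc39 on the opposite strand, and whether the authors' counting used strand is not given in the sources used here.

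Axonemal dynein heavy chains, the motors themselves, had a larger part of their UMIs in the ependymal-like cells than any other named gene family. Summed over the 15 Dnah genes they reached 4308 and 4739 CPM there and 73.3 and 68.7 CPM in the choroid plexus-like cells. Of the outer arm motors, Dnah5 had 445 UMIs in the Fit2-WT and 622 in the Fit2-Mut ependymal-like cells (397 and 428 CPM), and 2 UMIs in all 2934 choroid plexus-like cells. Dnah9 had 492 and 788 UMIs in the ependymal-like cells (439 and 543 CPM, ratio 1.24, 1.10 to 1.39) and, unlike Dnah5, 271 and 274 UMIs in the choroid plexus-like cells (16.2 and 16.5 CPM). Dnah11, of the same outer arm position as Dnah9, had 372 and 439 CPM in the ependymal-like cells and 12.1 and 12.4 CPM in the choroid plexus-like cells. The outer arm genes thus parted in the choroid plexus-like cells, with Dnah9 and Dnah11 counted 545 and 409 times over both libraries and Dnah5 only 2 times. Gm12296 overlaps Dnah9 and Cdca7l overlaps Dnah11 on the opposite strand, while no counted gene overlaps Dnah5. Whether strand entered the counting is not given, and the part of these overlaps in the counts was not tested.

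Among the inner arm motors, Dnah12 (chr14:26693274-26891703) stood at 949 and 940 CPM in the ependymal-like cells and held 96.6% and 98.1% of its UMIs there. Dnah6 stood at 599 and 635 CPM there and had 407 and 325 UMIs in the choroid plexus-like cells, 24.3 and 19.6 CPM (ratio 0.81, 0.70 to 0.94). Dnah10, shown above, had 281 and 394 UMIs in the ependymal-like cells and 3 in the choroid plexus-like cells. Dnah3 was at 276 and 337 CPM in the ependymal-like cells and had 38 and 36 UMIs in the endothelial-like cells, in 32 and 26 cells. Lyrm1 overlaps Dnah3 on the opposite strand. The near-identical copies Dnah7a, Dnah7b and Dnah7c all lie on chromosome 1, and reads could be split between them and their separate levels are uncertain. Dnaic1 and Dnaic2, the intermediate chains that hold the outer arm motors, were at 286 and 273 CPM and at 124 and 125 CPM in the ependymal-like cells, and kept 7.97% and 11.7% of that level in the choroid plexus-like cells, a larger part than any of the 13 heavy chains with 20 UMIs did. Enho overlaps Dnaic1 on the opposite strand.

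Several genes of this family have close relatives that serve the sperm tail. Dnah8 and Dnah17, the heavy chains known from the sperm flagellum, had 2 UMIs and none in the ependymal-like cells of both libraries. For Dnah17 a count of 0 allows up to 3.29 CPM in Fit2-WT and 2.54 CPM in Fit2-Mut. Rsph6a, the testis counterpart of Rsph4a, had none there either. Tekt5, a tektin of sperm, had 2 and 5 UMIs. The ependymal-like cells thus carried the transcripts of Dnah5, Dnah9, Dnah11 and Rsph4a and next to none of these relatives.

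Radial spoke genes were counted in both ciliated types. Rsph1 (chr17:31255019-31277383), a gene of the spoke head, was at 1169 and 1225 CPM in the ependymal-like cells and at 294 and 292 CPM in the choroid plexus-like cells. Rsph4a, also of the spoke head, was at 404 and 435 CPM in the ependymal-like cells and at a mean of 43.5 CPM in the choroid plexus-like cells. Rsph9, another spoke head gene, was at 362 and 357 CPM and at 143 and 140 CPM. The choroid plexus level was thus 24.5% of the ependymal one for Rsph1, 10.4% for Rsph4a and 39.4% for Rsph9. Rsph10b had 189 and 204 CPM in the ependymal-like cells, but overlaps Pms2 on the same strand, which makes its level uncertain.

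Of the tektins, Tekt1 (chr11:72344722-72362442) was at 369 and 397 CPM in the ependymal-like cells and 137 and 129 CPM in the choroid plexus-like cells, where 67.8% and 63.6% of cells had a transcript. Tekt4 was at 185 and 207 CPM in the ependymal-like cells and Tekt3 at 50.8 and 45.5 CPM, and Tekt3 had 1 UMI in all choroid plexus-like cells. Tekt2 was low throughout, at 12.5 and 15.8 CPM. Tekt5 (chr16:10357948-10395490) was the exception of the family, with 241 and 225 UMIs in 218 and 197 choroid plexus-like cells, 14.4 and 13.6 CPM, against 1.78 and 3.44 CPM in the ependymal-like cells.

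The Cfap genes, named for cilia and flagella associated proteins of many kinds, spanned the whole range. Cfap299 (chr5:98329304-98802047) was at 1235 and 1412 CPM in the ependymal-like cells, a ratio of 1.14 (1.07 to 1.23). Its log2 ratio of 0.19 was 0.05 with doublets kept, 0.08 at 5% mitochondrial UMIs, 0.07 with free RNA subtracted and 0.01 after thinning, and a gene model on the same strand, Gm11111, overlaps it. Cfap54 of the central apparatus was at 917 and 944 CPM, Cfap44, which tethers an inner arm dynein, at 570 and 598 CPM, and Cfap126, which helps to place basal bodies, at 558 and 608 CPM. The first 3 of these kept 1.37%, 1.48% and 3.90% of the ependymal level in the choroid plexus-like cells, and Cfap126 kept 35.8%. Cfap298, a gene of dynein arm assembly and the one with the whole X-box, was at 313 and 299 CPM in the ependymal-like cells and 274 and 281 CPM in the choroid plexus-like cells. Cfap36 (chr11:29221532-29247409), whose product binds the small GTPase Arl3, was at 364 and 327 CPM and at 345 and 321 CPM, so the choroid plexus level was 94.9% and 98.3% of the ependymal one.

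Genes of intraflagellar transport were found in every compared type. Ift43, a subunit of the complex that serves the return journey, was at 380 and 367 CPM in the ependymal-like cells and at 118 and 114 CPM in the oligodendrocyte-like cells, where 63.3% and 67.2% of cells had a transcript. Ift74, which binds tubulin cargo together with Ift81, was at 331 and 372 CPM in the ependymal-like cells and 213 and 219 CPM in the choroid plexus-like cells. Ift20, which also acts at the Golgi apparatus, was at 328 and 337 CPM in the ependymal-like cells and 217 and 210 CPM in the choroid plexus-like cells. It was also the highest of the 84 genes in the endothelial-like cells (126 and 109 CPM), the microglia-like cells (57.9 and 54.4 CPM) and the T cell-like cells (64.1 and 53.8 CPM). Ift22, a small GTPase of the forward complex, was at 272 and 306 CPM in the ependymal-like cells.

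**Figure D2:**
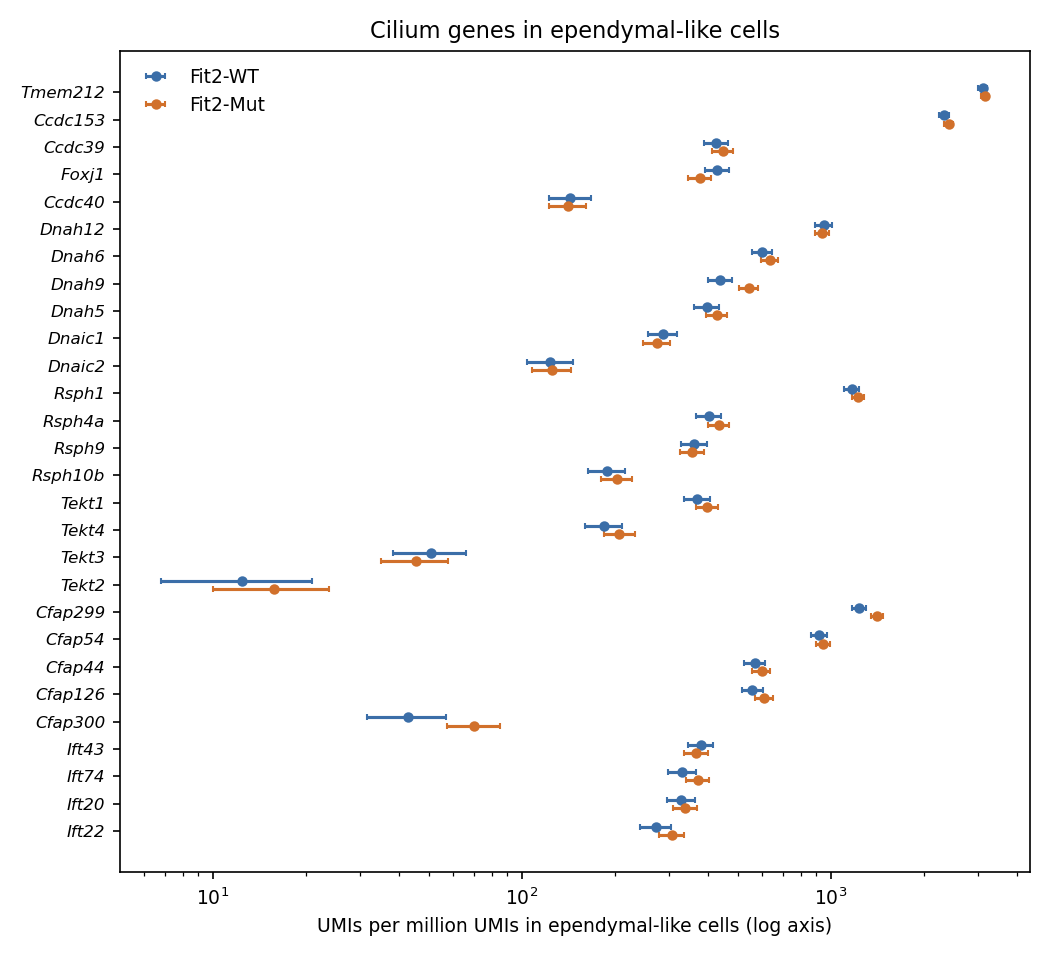
Level of 28 cilium genes in the ependymal-like cells (x axis, CPM, log axis), grouped by family, in each library; points are CPM of summed counts and bars 95% counting intervals. Tmem212 lies at 3102 and 3148 CPM. The 2 libraries are less than 1.5-fold apart for every gene shown except Cfap300, at 42.8 and 70.2 CPM.

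Set gene by gene, the choroid plexus-like cells kept a median of 9.64% of the ependymal level over the 77 genes with 20 UMIs in the ependymal-like cells. The median was 32.0% for 14 Ift genes, 17.8% for 7 Rsph genes, 10.4% for 4 Tekt genes, 4.94% for 32 Cfap genes and 1.40% for 13 Dnah genes. None of these 13 Dnah genes was above 3.55%, while 13 of the 14 Ift genes were at 10% or more. The limit of 20 UMIs was set in the ependymal-like cells, so it leaves out genes that are low there. Among those was Tekt5, at 534% of the ependymal level with 466 UMIs in the choroid plexus-like cells. The medians and counts therefore hold only for genes past that limit. In all, 12 of the 77 genes were under 1%, 28 between 1% and 10%, and 37 at 10% or more, 9 of them at 50% or more. The lowest 7 were Tmem212, Dnah5, Ccdc153, Dnah10, Dnah12, Tekt3 and Ccdc40, with 1 to 14 UMIs each in all choroid plexus-like cells, and the part of free RNA in these counts was not tested. The percentages were alike in both libraries: over 76 genes, which share cells and depth within a library, Spearman's rho between the libraries was 0.99. These are descriptions of cell types and were not tested, and per cell a lower level and fewer cells with the gene look the same in a summed count.

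**Figure D3:**
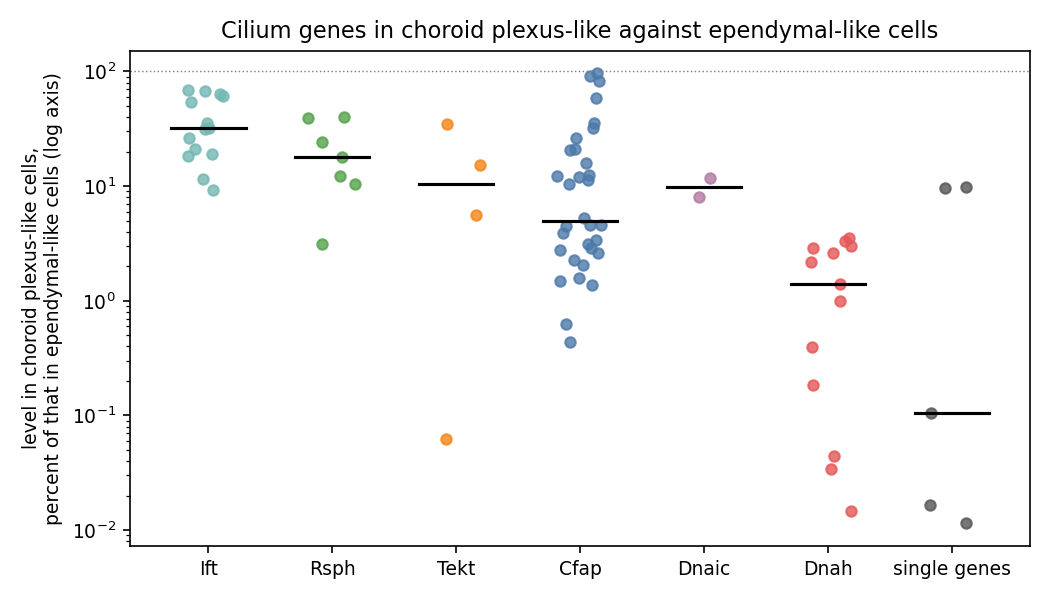
Level of each cilium gene in the choroid plexus-like cells as a percent of its level in the ependymal-like cells (y axis, log axis), by family (x axis), with both libraries averaged; points are the 77 genes with 20 UMIs in the ependymal-like cells, black lines the family medians and the dotted line equal levels. The Ift genes centre on 32.0% and the Dnah genes on 1.40%. Genes low in the ependymal-like cells are left out by the limit, among them Tekt5 at 534%.

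The ependymal-like cells had the highest level of the 7 types for 77 of the 81 genes with 20 UMIs over those types, and the choroid plexus-like cells came second for 52 of these 77. Near ties count among the 77. Cfap97 had a mean of 55.7 CPM against 55.5 CPM in endothelial-like cells, and Cfap36 345 CPM against 333 CPM in choroid plexus-like cells. The share of all genes with their highest level in the ependymal-like cells was not computed. The 4 of the 81 genes that were highest elsewhere were Tekt5, Dnah8, Dnah2os and Dnah17. Dnah8, a sperm heavy chain, had 22 and 33 UMIs in 18 and 21 T cell-like cells (21.0 and 20.6 CPM), and 40.9% and 48.5% of them lay in 5 cells. Dnah2os, antisense to Dnah2, had 16 and 18 UMIs in the endothelial-like cells, and Dnah17 had 5 and 5 UMIs in the microglia-like cells. Dnah8 and Dnah17 overlap other genes on the opposite strand.

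Dnah7b (chr1:46066315-46373546) was the highest of the 84 genes in the astrocyte-like cells. It had 806 UMIs in 461 Fit2-WT cells and 1096 UMIs in 610 Fit2-Mut cells, 129 and 125 CPM, against 3.15 and 2.64 CPM from free RNA and 243 and 266 CPM in the ependymal-like cells. The 7 astrocyte-like clusters ranged from 43.3 to 280 CPM in the Fit2-WT cells and from 33.0 to 289 CPM in the Fit2-Mut cells, and the same cluster was lowest and the same cluster highest in both. Shares of ribosomal protein UMIs are given beside it for all 7 clusters, Fit2-WT first. The cluster with the highest Dnah7b level had 0.345% and 0.361% of these, and the cluster with the lowest had 2.34% and 2.14%. The cluster with the highest ribosomal share, 3.19% and 3.02%, had 74.1 and 76.5 CPM of Dnah7b. Clusters with 0.438% and 0.313% and with 1.23% and 1.29% had 99.9 and 80.1 CPM and 118 and 120 CPM. Those with 1.16% and 1.31% and with 1.62% and 1.82% had 254 and 239 CPM and 233 and 169 CPM. The part of the ribosomal share in these levels was not tested. Whether intronic reads were counted is not given in the sources used here, and Dnah7b is a near copy of Dnah7a and Dnah7c.

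**Figure D4:**
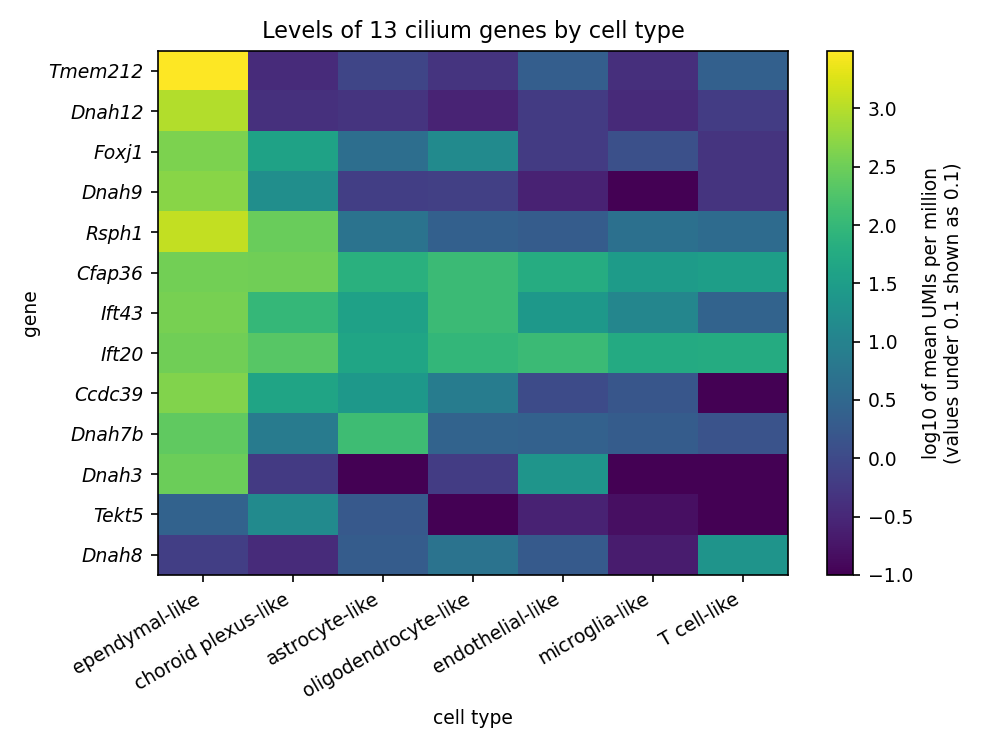
Mean level over the 2 libraries of 13 cilium genes (rows) in the 7 compared cell types (columns), coloured by log10 of CPM, with levels under 0.1 CPM shown as 0.1. The 13 genes were picked to show the patterns named in the text: Tmem212 and Dnah12 are high in the ependymal-like cells, Cfap36 and Ift20 span the types, Dnah7b is also high in the astrocyte-like cells, and Tekt5 and Dnah8 are highest elsewhere.

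Between the genotypes the summed level in the ependymal-like cells was 1.05 times as high in Fit2-Mut as in Fit2-WT (1.04 to 1.07). This direction did not hold: the ratio was 0.965 when barcodes called as doublets were kept and 0.972 when free RNA was subtracted. The share of free RNA, read from the choroid plexus transcript Ttr, was 15.1% in the Fit2-WT and 5.96% in the Fit2-Mut ependymal-like cells. Admixed cells also raise this share. Markers of choroid plexus, oligodendrocytes, astrocytes and microglia made up a median of 0.198% and 0.197% of the UMIs of an ependymal-like cell. The 4 Fit2-WT and 1 Fit2-Mut cells with over 2% held 64.6% and 34.1% of the summed cell percentages. Their part in the subtracted value was not tested. The kept doublets added 1 Fit2-WT and 11 Fit2-Mut barcodes to the cluster, with 9435 and 12626 CPM of cilium transcripts. Without the 4 Fit2-WT and 1 Fit2-Mut cells rich in markers of other types the ratio was 1.02. Cell by cell the libraries overlapped widely, since cilium genes made up a median of 2.72% of the UMIs of a Fit2-WT ependymal-like cell (middle 50% of cells 2.35% to 2.99%) and 2.75% (2.48% to 2.995%) of a Fit2-Mut one. Thinned to 1000 UMIs, a cell held a median of 18 different cilium genes in each library, from 8 to 30 and from 7 to 32.

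Gene by gene, 58 of the 77 genes in the ependymal-like cells had a ratio above 1, and their median log2 ratio was 0.08, against 0.01 for all 10591 genes with 20 UMIs. With doublets kept, 31 of the 77 were above 1, and with free RNA subtracted 32. At least 1.5-fold higher in Fit2-Mut was 1 of the 77 cilium genes, against 7.77% of all genes, and at least 1.5-fold lower was none, against 7.2% of all genes. The genes compared with were not matched on UMIs. The 1 gene was Cfap300, a gene of dynein arm assembly (chr9:8021672-8042823), with 48 UMIs in the Fit2-WT and 102 in the Fit2-Mut ependymal-like cells, 42.8 and 70.2 CPM, a ratio of 1.64 (1.15 to 2.36). A transcript of it was counted in 38.0% and 50.7% of the cells. With doublets kept its log2 ratio was 0.56 instead of 0.72, which is short of 1.5-fold, so that no gene was past it.

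By family, the Dnah genes had a ratio of 1.10 (1.06 to 1.14), the Cfap genes 1.07 (1.05 to 1.10), the Tekt genes 1.08 (0.98 to 1.19), the Rsph genes 1.05 (1.002 to 1.11), the Ift genes 1.03 (0.98 to 1.08), the single genes 1.01 (0.98 to 1.05) and the Dnaic genes 0.972 (0.859 to 1.10). The 19 cilium genes that span at least 100 kb had a summed ratio of 1.10, and all 1773 genes of that span with 20 UMIs had 1.07. The 14 cilium genes under 20 kb had 1.04, and all 4228 genes of that span 0.971. Long genes as a whole were thus also higher in the Fit2-Mut ependymal-like cells, and the part of gene length in the Dnah ratio was not tested.

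**Figure D5:**
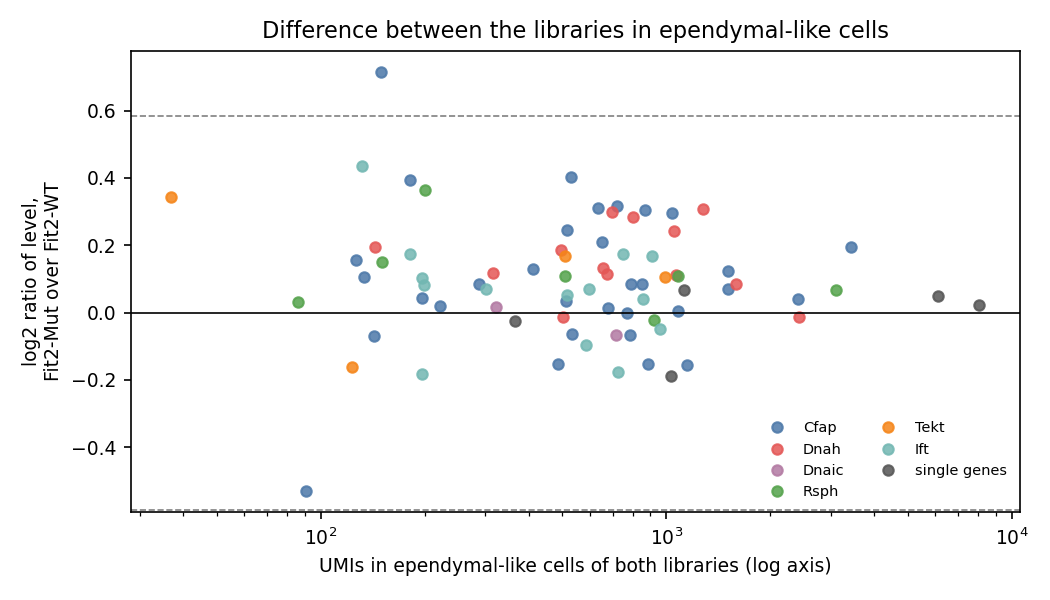
Log2 ratio of level, Fit2-Mut over Fit2-WT, in the ependymal-like cells (y axis) against the UMIs of both libraries (x axis, log axis), for the 77 cilium genes with 20 UMIs, coloured by family; dashed lines mark 1.5-fold. The points centre on 0.08, and Cfap300 is the 1 gene above the upper line.

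In the choroid plexus-like cells the summed ratio was 0.977 (0.966 to 0.989). None of the 70 cilium genes with 20 UMIs there was at least 1.5-fold higher in Fit2-Mut, against 3.24% of all genes, and 1 was at least 1.5-fold lower, against 2.87%. That gene was Dnah14, with 22 UMIs in 21 Fit2-WT cells and 4 UMIs in 4 Fit2-Mut cells, 1.31 and 0.24 CPM, a ratio of 0.18 (0.05 to 0.54); Lbr overlaps it on the opposite strand. The 8 cilium genes with the highest levels there (Cfap36, Rsph1, Cfap298, Ift74, Ift20, Cfap126, Rsph9 and Ift57) had ratios from 0.93 to 1.03. Only Cfap36, at 0.93 (0.90 to 0.97), had an interval that left out 1. The choroid plexus-like cells were 2 clusters, whose sums were 3448 and 3482 CPM in Fit2-WT and 3286 and 3516 CPM in Fit2-Mut.

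Tekt1 in the oligodendrocyte-like cells had no UMI in Fit2-WT and 25 UMIs in 15 cells in Fit2-Mut, 60% of them in 5 cells. Free RNA would give 0.59 and 1.81 CPM there, and the Fit2-Mut level was 2.43 CPM. The part of free RNA in this count was not tested.

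Other genes of the cilium, in 11 lists of parts without these symbols, were set beside the 84. The share of all genes past the 10-fold limit used here was not computed, so the counts below have no background to be read against. All 13 genes of the list named for the central pair were at least 10-fold higher in the ependymal-like cells than in all other cells. Their median was 29.96-fold. The list is wider than its name, since Efcab1 and Enkur in it are not central pair genes. Spag16 of this list was at 847 and 1048 CPM and Ak7 at 914 and 899 CPM. All 10 genes of dynein docking and light chains were also past 10-fold, with Dynlrb2 at 1163 and 1047 CPM and Tctex1d4 at 387 and 384 CPM. Of 15 genes of proteins inside the doublets 9 were, among them Fam183b at 1649 and 1598 CPM and 1110017D15Rik at 953 and 961 CPM. None of 11 BBSome genes, which serve membrane traffic in cilia of all kinds, was past 10-fold, with Ttc8 at 139 and 174 CPM and Bbip1 at 127 and 140 CPM. Of 16 transition zone genes, which gate the base of the cilium, 3 were, and Cep290 (349 and 373 CPM) and B9d1 (304 and 311 CPM) were not.

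The other lists held genes bound to the ependymal-like cells beside genes shared with the choroid plexus-like cells. In the list of other ciliated cell genes, Sntn was at 463 and 526 CPM in the ependymal-like cells with no UMI in the choroid plexus-like cells, whereas Mlf1 was at 670 and 658 CPM in the first and 165 CPM in each library in the second. Of the nexin-dynein regulatory complex, which links neighbouring doublets, Iqca was at 464 and 491 CPM in the ependymal-like cells and 2.86 and 3.13 CPM in the choroid plexus-like cells, and Drc3 was at 379 and 386 CPM and at 47.2 and 45.2 CPM. Dynein assembly factors, which build the arms in the cytoplasm, included Dnaaf3 at 207 and 253 CPM in the ependymal-like cells and 14.5 and 12.6 CPM in the choroid plexus-like cells, and Dnaaf4 at 201 and 211 CPM and at 22.7 and 22.1 CPM. The regulator Rfx3 was at 338 and 384 CPM in the ependymal-like cells and 25.4 and 27.0 CPM in the choroid plexus-like cells, and Myb, which acts early in the making of many cilia, at 99.8 and 118 CPM and at 0.06 and 0.12 CPM. The motor of return transport, Dync2h1, was at 290 and 294 CPM in the ependymal-like cells and its chain gene Wdr60 at 273 and 339 CPM. The tubulin Tubb4b stood at 2584 and 2607 CPM in the ependymal-like cells and 1363 and 1278 CPM in the choroid plexus-like cells, and Tuba1a at 3507 and 3379 CPM and at 316 and 320 CPM.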

How the data were processed

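The deposited matrices hold raw UMI counts per gene and barcode for all barcodes, made by the authors with Cell Ranger on mm10 (version 7.0.0 per the submitters' processing notes, 7.1.0 in the file headers). Which annotation release was used, and whether introns and strand entered the counting, is not given in the sources used here. The libraries held 52491901 (Fit2-WT) and 63234140 (Fit2-Mut) UMIs. Barcodes with at least 1000 UMIs, 500 genes and at most 10% mitochondrial UMIs were kept, and doublets called by Scrublet in each library (124 and 155) were removed. Cells were clustered in Scanpy 1.11.5 with leidenalg 0.10.2 without the cilium genes and named from 19 marker lists. CPM were computed from counts summed per type and library. Ratios carry exact conditional intervals and shares Clopper-Pearson intervals, and both cover counting error only. The ratio intervals alone were run on simulated Poisson counts. Those counts have no spread between cells, so the run cannot show how the intervals do with such spread. There is 1 library per genotype, so no p-value was computed. Free RNA was profiled in barcodes with 10 to 100 UMIs, and its share in a type was taken from Ttr, a transcript of choroid plexus cells, a share that any admixed cells also raise. Genes were named by level rules (the single genes, the 4 highest of each family in ependymal-like cells, the 8 highest in choroid plexus-like cells, the 3 highest elsewhere, the 2 highest of each other list, and those past 1.5-fold); Dnah2os, Dnah3, Dnah7a, Dnah7c, Dnah8, Dnah10, Dnah11, Dnah14, Dnah17, Rsph6a, Tekt5 and genes named for their promoter or their place in another type were chosen after their values were seen. The members and lists were chosen with earlier results of these data known. Alternatives changed the cell limits, doublets, naming, scaling, depth, free RNA and UMI minimum.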

Additional observations from a re-analysis of the deposited data

Results flagged for a closer look

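As counted, the summed level of the 84 cilium genes lay on opposite sides of equality in different cell types, but the ependymal direction did not hold under every setting. The oligodendrocyte-like and microglia-like cells were not recomputed on their own under other settings. The ratio of Fit2-Mut over Fit2-WT was 1.05 in the ependymal-like cells and 1.06 in the oligodendrocyte-like cells, both with intervals above 1 (1.04 to 1.07 and 1.03 to 1.10). It was 0.977 in the choroid plexus-like cells and 0.923 in the microglia-like cells, both with intervals below 1 (0.966 to 0.989 and 0.876 to 0.973). Free RNA would give 28.7 and 108 CPM of the sum in the oligodendrocyte-like cells and 196 and 113 CPM in the microglia-like cells. The part of free RNA in these ratios was not tested. The ependymal ratio was 0.965 with doublets kept and 0.972 with free RNA subtracted. Of the 2 choroid plexus-like clusters, 1 went from 3448 CPM in Fit2-WT to 3286 in Fit2-Mut and the other from 3482 to 3516. With 1 library per genotype the difference between the types was not tested.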

How the results depend on the processing

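No paired analysis was possible because each genotype has 1 library. The summed ratio in ependymal-like cells (1.05) crossed 1 with doublets kept (0.965) and with free RNA subtracted (0.972), as did the median log2 ratio of 0.08 (-0.029 and -0.026); the cause was not tested beyond the added cells given above. The summed ratio was 1.03 at 5% mitochondrial UMIs, 1.09 with types named by marker share and 1.02 without the 4 and 1 cells rich in other markers, an alternative chosen after seeing the data. The median log2 ratio was 0.12 by marker share and 0.045 without those cells. The 1 gene past 1.5-fold became 0 with doublets kept, 2 with cells weighted equally, with free RNA subtracted, with a minimum of 1 UMI in each library or without those cells, and 4 after thinning. These counts are out of 77 genes, but out of 78 with the minimum of 1 UMI and out of 63 after thinning. The share of all genes past 1.5-fold was not computed under these settings, so the counts cannot be set against it. In choroid plexus-like cells the ratio was 0.994 with cells weighted equally and 0.956 after thinning, and subtraction of free RNA was not run there. In the other named types together it was 1.03, and 1.01 by marker share, 1.06 with cells weighted equally and 1.11 after thinning. The ependymal share of cilium UMIs was 26.3% and 33.1% with doublets kept, 26.5% and 31.5% at 5% mitochondrial UMIs, 25.9% and 30.1% after thinning, and 26.3% and 31.7% without those cells. It was 32.5% in Fit2-Mut at 500 UMIs and 250 genes. In these settings the share was higher in Fit2-Mut. Of 307 values for 28 named genes, 274 stayed within the counting interval and 33 moved out of it. Counts of 20 UMIs leave wide intervals, so small ratios of low genes were not detectable at this depth.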
